A study of Mus musculus with 36 samples.

Results

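Chemokines are small secreted proteins that bind receptors on leukocytes and guide them into tissue. The intestinal epithelium makes a set of its own. Ccl25 draws Ccr9+ lymphocytes to the small intestine, Ccl28 draws Ccr10+ plasma cells to mucosal surfaces, and Ccl20 draws Ccr6+ dendritic cells and lymphocytes, above all to the epithelium over lymphoid follicles. Cxcl16 and Cx3cl1 (fractalkine) are made as membrane proteins with a chemokine head on a mucin stalk and are released by cleavage. Cxcl1, Cxcl2 and Cxcl5 attract neutrophils through Cxcr2, and Cxcl10 is an interferon-induced ligand of Cxcr3. These 9 genes, of 52636 listed, were followed by symbol across mouse intestinal organoids. Ccl20 was picked because it rose with anti-Ptk7 in these libraries, and was thus selected on its own fold change, so its values in every comparison that uses SCM or Wnt5a libraries are given as a description with no test.

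The organoids were grown from jejunal crypts of C57BL/6 mice in 6 conditions with 6 libraries each, 36 in all. The reference was complete media + IgG. QCM + IgG and SCM + IgG were organoids in medium conditioned by mouse embryonic fibroblasts that were quiescent after serum withdrawal or senescent after X-rays or doxorubicin, and SCM + anti-Ptk7 received an antibody against the receptor Ptk7 in place of control IgG. Wnt5a + IgG and Wnt5a + anti-Ptk7 were organoids in complete medium with added Wnt5a, a ligand of the noncanonical Wnt pathway. Since complete media + anti-Ptk7 is not analysed here, the antibody can be compared with IgG only in SCM and in Wnt5a. The labels number the libraries of each condition from 1 to 6 without saying that a number is a mouse, and p values measure the spread between these libraries.

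Library totals ran from 9581589 to 21029769 counts. All 8 epithelial markers (Epcam, Cdh1, Krt8, Krt18, Krt19, Vil1, Cdx1 and Cdx2) held counts in all 36 libraries, and their summed level was highest in Wnt5a + anti-Ptk7 replicate 1 at 32342 CPM, that is counts divided by the scaled library total in units of 1e6. That sum was between 8916 and 12050 CPM in complete media + IgG, between 12940 and 19870 in SCM + IgG and between 15060 and 27680 in Wnt5a + IgG, so both of the latter lay above complete media + IgG. The leukocyte marker Ptprc had 39 counts over all libraries, and Adgre1 and Itgax had 0. Of the other leukocyte markers, Csf1r (13.86 CPM over 36 libraries) and Cd68 (1.244) held counts in all 36, and the sum of all 12 was between 10.67 and 20.48 CPM. The fibroblast markers Col3a1, Dcn and Thy1 were at 0 in all 36 libraries, while the sum of 10 fibroblast markers was between 0.146 and 5.92 CPM in complete media + IgG and between 9.38 and 37.6 CPM in Wnt5a + IgG, most of it Fn1 (6.79 to 35.95 CPM in Wnt5a + IgG). The part of these differences in the SCM and Wnt5a results was not tested. In bulk RNA, fewer cells of a type and less RNA per cell cannot be told apart.

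The base sequence upstream of 4 of the 9 genes holds a match to an NF-κB type site (GGG, any 3 bases, then TTCC) on either strand, and these stretches are shown because NF-κB feedback genes come up beside Ccl20 in the values that follow. Those values include the rise with anti-Ptk7 for which Ccl20 was picked. Promoter windows of 250 bases before and 50 after the RefSeq start were matched for 7 of the 9 symbols, in 8 windows. Ccl20, Cxcl1, Cxcl2 and Cxcl10 hold the motif, against 5.56% of 32851 RefSeq windows (GRCm38.p6). A match is a description of the letters and not of binding. In the following stretches of 250 bases, which end 1 base before the RefSeq start and read 5′ to 3′ on the strand of the gene, capitals mark the matches. They lie at chr1:83116516-83116765 (+) for Ccl20, chr5:90890995-90891244 (+) for Cxcl1, chr5:90903649-90903898 (+) for Cxcl2 and chr5:92348890-92349139 (−) for Cxcl10.
Ccl20: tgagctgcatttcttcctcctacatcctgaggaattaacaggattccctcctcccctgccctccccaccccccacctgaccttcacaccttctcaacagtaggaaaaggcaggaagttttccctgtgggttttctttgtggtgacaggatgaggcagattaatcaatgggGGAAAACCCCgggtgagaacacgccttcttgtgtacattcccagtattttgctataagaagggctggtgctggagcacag
Cxcl1: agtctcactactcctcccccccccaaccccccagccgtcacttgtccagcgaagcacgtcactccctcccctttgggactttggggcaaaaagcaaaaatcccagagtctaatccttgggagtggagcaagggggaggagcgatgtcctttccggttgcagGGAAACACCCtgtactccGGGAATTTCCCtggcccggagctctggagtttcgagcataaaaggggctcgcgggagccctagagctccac
Cxcl2: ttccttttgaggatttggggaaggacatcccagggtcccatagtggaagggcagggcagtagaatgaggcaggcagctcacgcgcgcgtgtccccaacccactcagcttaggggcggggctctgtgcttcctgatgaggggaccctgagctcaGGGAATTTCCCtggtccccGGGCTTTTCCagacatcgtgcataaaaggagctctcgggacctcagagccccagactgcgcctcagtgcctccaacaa
Cxcl10: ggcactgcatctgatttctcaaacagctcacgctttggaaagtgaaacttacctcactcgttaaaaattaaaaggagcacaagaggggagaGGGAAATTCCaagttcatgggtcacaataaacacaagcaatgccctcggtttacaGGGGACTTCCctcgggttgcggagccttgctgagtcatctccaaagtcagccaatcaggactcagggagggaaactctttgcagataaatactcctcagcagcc

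Ccl20 holds 1 match, from −80 to −71 on the minus strand. Cxcl1 and Cxcl2 each hold 3, of which 2 cover a near-palindrome on both strands and share 9 of their bases. The matches of Cxcl10 begin at −159 and −104 on the plus strand. Cxcl10 also held an interferon response type motif (TTTC, any 2 bases, then TTTC, on the minus strand from −213 to −204), present in 3.44% of all windows, and an AP-1 type motif (TGANTCA) from −74 to −68, present in 7.81%. Ccl28 held the AP-1 type motif from base 20 to base 26 counted from the start as base 0. Ccl20 held a TEAD type motif (CATTCC) from −45 to −40, which 14.7% of all windows hold on 1 strand or the other. TATAAA, in 13.6% of windows, was found before the start of Ccl25 and Cx3cl1.

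The genes fell into an abundant and a scarce set. Mean CPM over 36 libraries, scaled by TMM (trimmed mean of M values), was 198.5 for Ccl25, 116.4 for Cxcl16, 110.2 for Cx3cl1, 75.1 for Ccl28 and 17.3 for Ccl20. It was 1.79 for Cxcl1 and 0.862 for Cxcl10, and below the limit of 0.5 CPM for Cxcl5 (0.473) and Cxcl2 (0.291), which are taken as not detected. Cxcl10 was just inside that limit and Cxcl5 just outside it. Levels of different genes can be compared only by length. Per kb of annotated exon the order was Cxcl16 (38.5 CPM per kb), Cx3cl1 (28.03), Ccl25 (26.7), Ccl28 (15.5) and Ccl20 (12.2), followed by Cxcl1 at 0.956. Neighbours in this order were often close, since Cxcl16 was above Cx3cl1 in 24 of 36 libraries and Cx3cl1 above Ccl25 in 20. Ccl25 was above Ccl28, and Ccl20 above Cxcl1, in all 36. Because the methods describe counting of reads in coding sequence, the same counts were also divided by coding length, and Ccl28 (192.5 CPM per kb) and Ccl25 (182.8) then came before Cxcl16 (157.7).

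**Figure D1:**
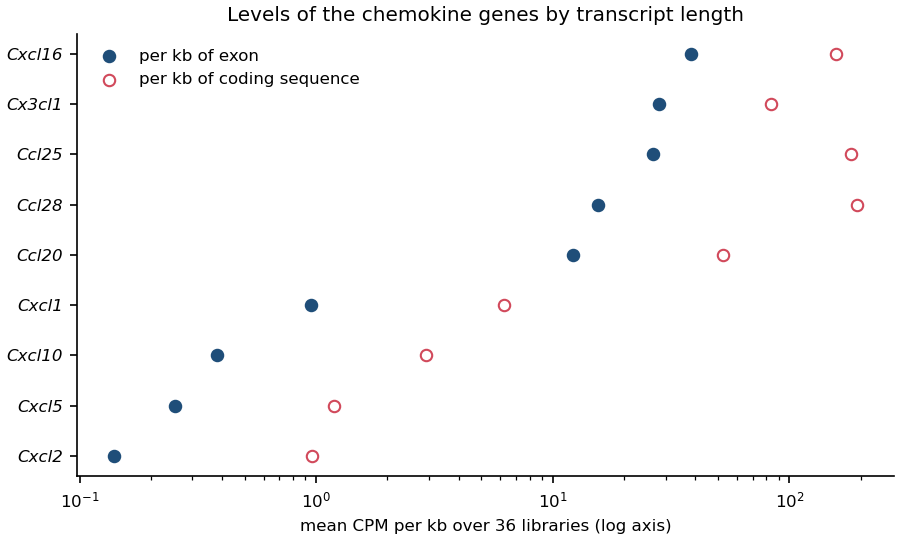
Mean level of each chemokine gene over 36 libraries, in CPM per kb of exon (filled) or per kb of coding sequence (open), on a log axis. On both scales 5 genes lie above 10 CPM per kb and the Cxcl1, Cxcl10, Cxcl5 and Cxcl2 genes lie below 10, while the order within the upper 5 changes with the length used.

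Ccl20, on chromosome 1 (GRCm38, chr1:83116766-83119167, plus strand), had its highest levels in both anti-Ptk7 conditions. In complete media + IgG its 6 libraries ran from 3.33 to 13.1 CPM with a median of 6.87, and in QCM + IgG from 5.21 to 15.8 with a median of 8.33. In SCM + IgG they ran from 10.4 to 13.5 CPM with a median of 11.5, and in SCM + anti-Ptk7 from 13.8 to 41.95 with a median of 36.2. In Wnt5a + IgG they ran from 10.3 to 23.1 CPM with a median of 12.3, and in Wnt5a + anti-Ptk7 from 17.1 to 34.3 with a median of 28.2. The libraries of SCM + anti-Ptk7 did not overlap those of SCM + IgG, whereas 5 of 6 libraries of Wnt5a + anti-Ptk7 were above all of Wnt5a + IgG. Group means followed the order complete media + IgG, QCM + IgG, SCM + IgG, Wnt5a + IgG, Wnt5a + anti-Ptk7 and SCM + anti-Ptk7, and the libraries of each neighbouring pair in this order overlapped.

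The values that chose Ccl20 were log2 fold changes of 1.51 ± 0.27 (SE) with anti-Ptk7 in SCM and 1.00 ± 0.27 in Wnt5a, and no test is given for them. The lowest library of each antibody condition was replicate 1, at 13.8 CPM in SCM + anti-Ptk7 and 17.1 in Wnt5a + anti-Ptk7. The next lowest were at 30.4 and 26.3 CPM. Leaving out 1 library at a time moved the fold change to between 1.42 and 1.67 in SCM and between 0.93 and 1.21 in Wnt5a. Against complete media + IgG the log2 fold change of Ccl20 was 0.60 ± 0.27 in SCM + IgG and 0.83 ± 0.27 in Wnt5a + IgG, also as a description. The comparison of QCM + IgG with complete media + IgG played no part in the choice, and there Ccl20 was not called (log2 fold change 0.30, 95% interval −0.26 to 0.86, adjusted p = 0.73, edgeR).

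**Figure D2:**
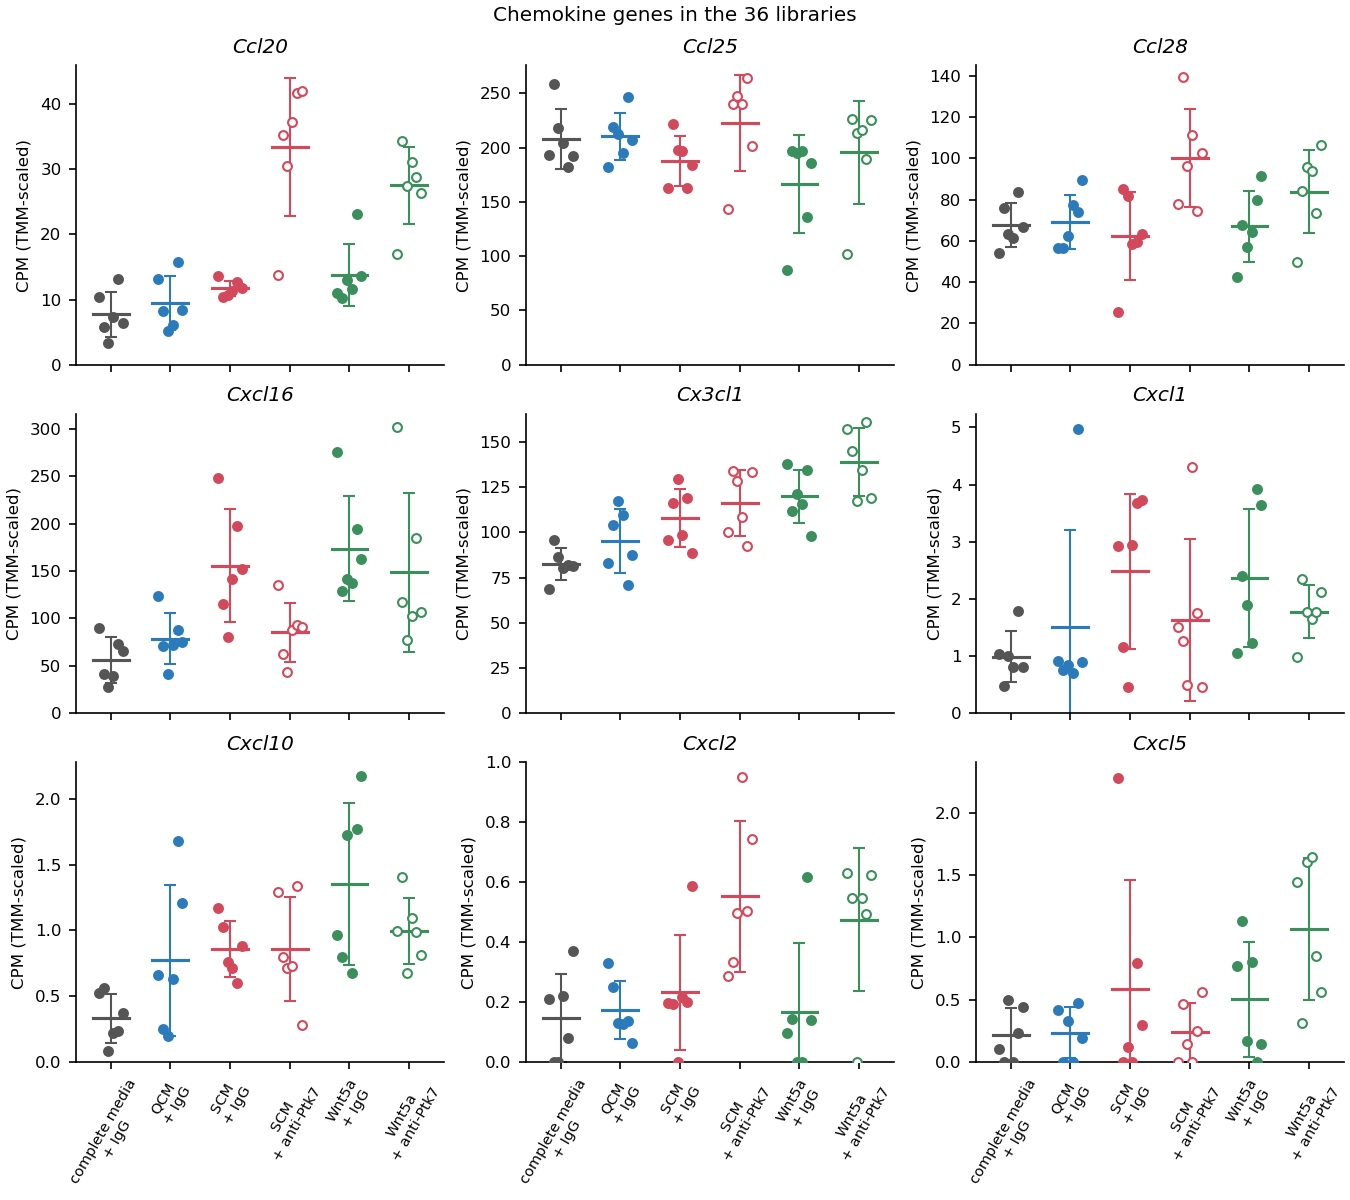
CPM (TMM-scaled) of each chemokine gene in each library of the 6 conditions, filled for IgG and open for anti-Ptk7, with the mean as a line and ± SD as bars cut at 0. Ccl20 is highest in SCM + anti-Ptk7 and Wnt5a + anti-Ptk7, and Cxcl16 is higher in SCM + IgG and Wnt5a + IgG than in complete media + IgG.

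The genes whose log2 CPM was most like that of Ccl20 over the 36 libraries, among 12456 genes ranked, were Nfkbia (Pearson r = 0.872) and Zc3h12a (r = 0.845). Nfkbia encodes IκBα, which holds NF-κB in the cytoplasm and is itself induced by it, and Zc3h12a encodes regnase-1, a nuclease that degrades inflammatory transcripts. Hsd11b2 (0.808), S100a1 (0.797) and Pla2g12a (0.793) came next, and the lowest were Cyp4b1 (−0.833), Eif4h (−0.828), Mars (−0.821), Sec61a1 (−0.811) and Ddx56 (−0.799). These points share the conditions, including the rise with anti-Ptk7 for which Ccl20 was chosen, so genes that rise with the antibody rank high by that choice. With the condition means removed, r was 0.670 for Nfkbia, 0.537 for Pla2g12a, 0.533 for Zc3h12a, 0.372 for Hsd11b2 and 0.297 for S100a1, and 1 of the 5 highest genes stayed among the 5 highest.

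Nfkbia was at 129.2 ± 18.5 CPM (SD, n = 6) in SCM + IgG and 207.3 ± 26.3 in SCM + anti-Ptk7, where every library was above every IgG library. It was at 138.3 ± 5.77 CPM in Wnt5a + IgG and 185.8 ± 25.8 in Wnt5a + anti-Ptk7, again without overlap. Zc3h12a was at 11.8 ± 2.75 CPM in SCM + IgG and 20.3 ± 4.06 in SCM + anti-Ptk7, and at 16.7 ± 4.31 and 20.9 ± 3.17 CPM in Wnt5a without and with the antibody, and its libraries overlapped in both media.

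**Figure D3:**
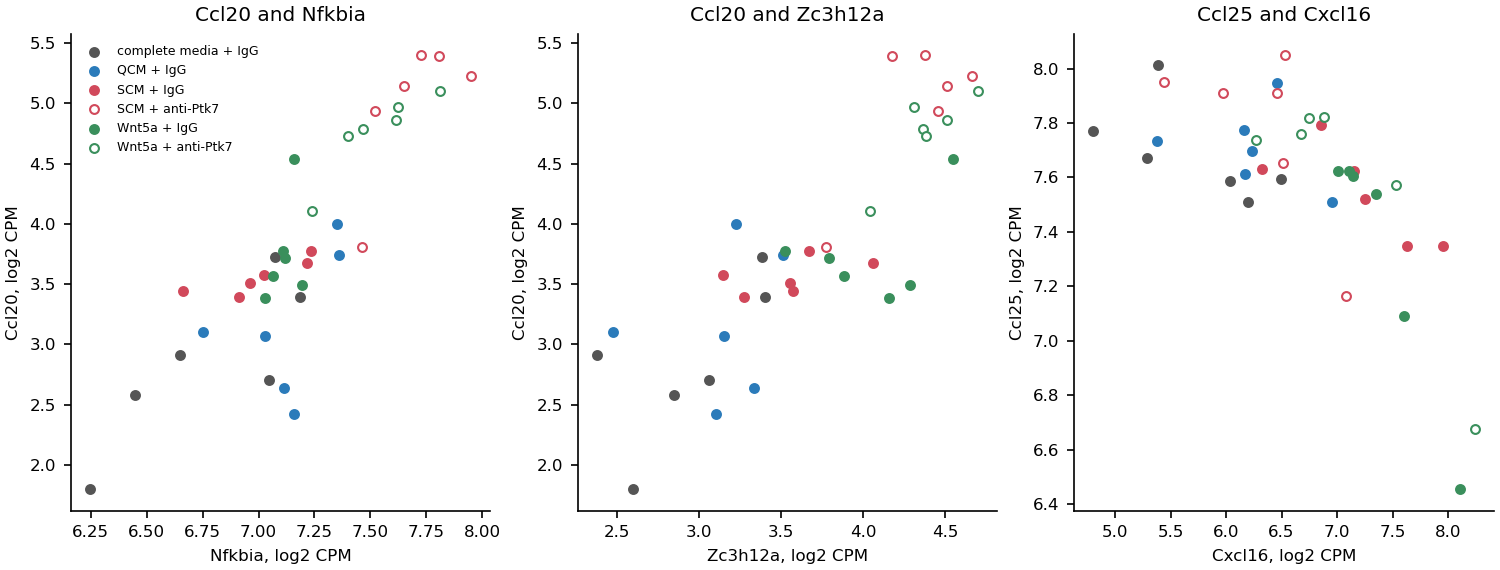
log2 CPM of Ccl20 against Nfkbia (left) and Zc3h12a (middle), and of Ccl25 against Cxcl16 (right), 1 point per library, filled for IgG and open for anti-Ptk7. Over all libraries, with the anti-Ptk7 rise that selected Ccl20 among them, r is 0.872 for Nfkbia and 0.845 for Zc3h12a, against 0.670 and 0.533 with the condition means removed, and the libraries with the most Cxcl16 hold the least Ccl25 (r = −0.684).

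Cxcl16, whose protein is both a chemokine for Cxcr6+ T cells and a scavenger receptor, rose with SCM and with Wnt5a against complete media + IgG. It lies on chromosome 11 (chr11:70453983-70459984, minus strand). In complete media + IgG its libraries ran from 27.8 to 90.2 CPM (median 53.6) and in QCM + IgG from 41.4 to 123.6 (median 73.5). In SCM + IgG they ran from 80.05 to 247.7 CPM (median 147.1), and in Wnt5a + IgG from 128.9 to 275.4 (median 152.1). Every library of Wnt5a + IgG was above all of complete media + IgG, as were 5 of 6 libraries of SCM + IgG. The log2 fold change against complete media + IgG was 1.47 ± 0.32 (SE) in SCM + IgG (adjusted p = 0.0017, edgeR), where 6.08% of all 15497 genes tested were called, and 1.63 ± 0.32 in Wnt5a + IgG (adjusted p = 0.0003, edgeR), where 10.2% were. Against QCM + IgG it was 0.99 ± 0.31 in SCM + IgG and not called (adjusted p = 0.085, edgeR), where 0.903% of all genes were.

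With anti-Ptk7 the level of Cxcl16 in SCM was 85.4 ± 31.1 CPM (SD, n = 6) against 155.8 ± 59.5 with IgG, a log2 fold change of −0.87 (95% interval −1.497 to −0.24) that did not pass after adjustment (adjusted p = 0.13, edgeR). Each of the 6 anti-Ptk7 libraries was below the SCM + IgG library with the same number, although the labels do not say that a number ties libraries together. With the number fitted as a block Cxcl16 was called (−0.86, adjusted p = 1.34e-05, edgeR), as were 2.57% of all genes. In Wnt5a the values were 148.6 ± 83.5 CPM with anti-Ptk7 and 173.5 ± 55.2 with IgG (log2 fold change −0.22, 95% interval −0.85 to 0.40, adjusted p = 0.81, edgeR). Replicate 1 was the highest library of Cxcl16 in all 6 conditions, at 302.2 CPM in Wnt5a + anti-Ptk7. Zmynd15 overlaps Cxcl16 on the other strand, and 16.9% of the 50-base stretches of Cxcl16 transcripts also occur in Zmynd15 transcripts when both strands are read. The kit does not mark strand, so reads from the shared stretch cannot be told apart. Zmynd15 was at 19.8 ± 9.18 CPM in complete media + IgG, 49.8 ± 18.4 in SCM + IgG and 59.1 ± 22.4 in Wnt5a + IgG.

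Cx3cl1 (chr8:94772009-94782427, plus strand), the ligand of Cx3cr1 on intestinal mononuclear phagocytes, was higher in SCM + IgG and Wnt5a + IgG by smaller steps. Its libraries ran from 68.7 to 96.1 CPM in complete media + IgG (median 81.5), from 88.5 to 129.8 in SCM + IgG (median 107.2) and from 98.3 to 138.0 in Wnt5a + IgG (median 118.6). Wnt5a + IgG did not overlap complete media + IgG. The log2 fold change was 0.39 ± 0.12 (SE) in SCM + IgG (adjusted p = 0.028, edgeR) and 0.54 ± 0.12 in Wnt5a + IgG (adjusted p = 0.0011, edgeR), and both passed the test on p but not the fold change limit of 1.5. With anti-Ptk7 the means were 116.2 ± 18.1 CPM in SCM and 139.0 ± 18.7 in Wnt5a, with log2 fold changes of 0.11 (95% interval −0.13 to 0.35) and 0.21 (−0.03 to 0.45) against IgG.

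Of the 6 genes listed as sheddases or their regulators, which include the proteases Adam10 and Adam17 that cleave Cx3cl1 and Cxcl16, 2 rose in Wnt5a + IgG, where 8.29% of all genes were called higher. In SCM + IgG 0 were called by edgeR, DESeq2 or voom with limma (2 of 6 had an unadjusted p under 0.05 by edgeR), beside 6.08% of all genes called and 24.7% at an unadjusted p under 0.05. Adam9 averaged 85.5 ± 6.01 CPM (SD, n = 6) in complete media + IgG and 170.6 ± 47.8 in Wnt5a + IgG (log2 fold change 1.00 ± 0.15, adjusted p = 1.41e-05, edgeR). Rhbdf1, an inactive rhomboid that takes part in the maturation of Adam17, was at 51.3 ± 11.6 and 91.7 ± 18.6 CPM (log2 fold change 0.84 ± 0.16, adjusted p = 0.0003, edgeR). The list had a median of 0.33 on the log2 scale in Wnt5a + IgG, beside 0.01 over all genes.

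Ccl25 and Ccl28, the lymphocyte ligands, were not called with any medium. Ccl25 (chr8:4325210-4360020, plus strand) averaged 207.9 ± 27.5 CPM (SD, n = 6) in complete media + IgG, 210.5 ± 21.9 in QCM + IgG, 187.8 ± 22.8 in SCM + IgG and 166.4 ± 45.1 in Wnt5a + IgG. Its log2 fold change against complete media + IgG was −0.15 (95% interval −0.48 to 0.19) in SCM + IgG and −0.32 (−0.65 to 0.01) in Wnt5a + IgG. The lowest Ccl25 libraries of all 36 were replicate 1 of Wnt5a + IgG at 87.6 CPM and of Wnt5a + anti-Ptk7 at 102.0. The same pair held the most Cxcl16. Over the 36 libraries the correlation of Ccl25 with Cxcl16 in log2 CPM was −0.684, and −0.691 with the condition means removed. The sum of 11 enterocyte markers was also lowest in this pair, at 2852 and 2798 CPM, while the highest library of all was at 6447. The part of enterocyte content in these values was not tested.

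Ccl28 (chr13:119623819-119654359, plus strand) was between 25.6 and 85.2 CPM in SCM + IgG, with a median of 61.4, and between 74.4 and 139.4 in SCM + anti-Ptk7, with a median of 99.4. Of the antibody libraries, 4 of 6 were above all IgG libraries. The log2 fold change was 0.69 ± 0.21 (SE, 95% interval 0.27 to 1.10), which did not pass after adjustment by edgeR (adjusted p = 0.06), while DESeq2 (0.69, adjusted p = 0.023) and voom with limma (0.76, adjusted p = 0.037) called it. The lowest IgG library was SCM + IgG replicate 1 at 25.6 CPM. With all libraries numbered 1 left out, the log2 fold change was 0.57 (adjusted p = 0.035, edgeR), under the fold change limit. In Wnt5a the means were 83.9 ± 20.1 CPM with anti-Ptk7 and 67.05 ± 17.1 with IgG (log2 fold change 0.32, 95% interval −0.09 to 0.74).

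The inflammatory ligands were scarce, and counting error adds to the spread between their libraries. Cxcl10 (chr5:92346638-92348889, minus strand) had 23 counts over the 6 libraries of complete media + IgG, 68 in QCM + IgG, 72 in SCM + IgG and 113 in Wnt5a + IgG. Its libraries ran from 0.0834 to 0.564 CPM in complete media + IgG (median 0.302) and from 0.196 to 1.68 in QCM + IgG (median 0.647). They ran from 0.598 to 1.17 CPM in SCM + IgG (median 0.8201) and from 0.6797 to 2.18 in Wnt5a + IgG (median 1.34). SCM + IgG and Wnt5a + IgG lay entirely above complete media + IgG, but by little in SCM + IgG. Its replicate 5 (0.598 CPM) and complete media + IgG replicate 2 (0.564 CPM) each held 6 counts. The share of all genes whose libraries separate in this way was not worked out, here or for the genes above. The mean of the reference, complete media + IgG, was 0.332 CPM, under the limit of 0.5 CPM that Cxcl10 passed over all 36 libraries. The log2 fold change was 2.02 ± 0.47 (SE) in Wnt5a + IgG (adjusted p = 0.0019, edgeR) and 1.38 ± 0.47 in SCM + IgG, where it just missed the threshold by edgeR (adjusted p = 0.0503) and passed it by DESeq2 (1.42, adjusted p = 0.037). In QCM + IgG it was 1.23 ± 0.47 (unadjusted p = 0.0134, adjusted p = 0.25, edgeR). Art3 overlaps Cxcl10 on the other strand and shares 3.59% of its 50-base stretches, and Art3 was at 0.259 ± 0.352 CPM in complete media + IgG and 1.496 ± 0.694 in Wnt5a + IgG.

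Cxcl1 (chr5:90891241-90893115, plus strand) had between 5 and 74 counts in a library. It averaged 0.987 ± 0.443 CPM (SD, n = 6) in complete media + IgG, 2.48 ± 1.36 in SCM + IgG and 2.36 ± 1.21 in Wnt5a + IgG, and the libraries overlapped. The log2 fold change was 1.31 (95% interval 0.23 to 2.38, adjusted p = 0.11, edgeR) in SCM + IgG and 1.25 (0.18 to 2.32, adjusted p = 0.088, edgeR) in Wnt5a + IgG, neither called. A single library, QCM + IgG replicate 5, held 4.98 CPM, the highest of all 36, while the median of its condition was 0.8703.

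Cxcl2 and Cxcl5 were below the limit and are given as counts. Cxcl2 had 138 counts in all, with 11 in complete media + IgG, 14 in QCM + IgG, 17 in SCM + IgG, 43 in SCM + anti-Ptk7, 14 in Wnt5a + IgG and 39 in Wnt5a + anti-Ptk7, and 6 libraries were at 0. Without the filter on low counts its log2 fold change with anti-Ptk7 was 1.25 ± 0.81 (SE, adjusted p = 0.51, edgeR) in SCM and 1.47 ± 0.82 (adjusted p = 0.48, edgeR) in Wnt5a. In Cxcl2, 5.84% of the 50-base stretches also occur in the related gene Cxcl3. Cxcl5 had 235 counts, of which 35 were in SCM + IgG replicate 1 and 84 in Wnt5a + anti-Ptk7, and 9 libraries were at 0.

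Calls rest on 2 criteria, an adjusted p below 0.05 together with a change of more than 1.5-fold in either direction. Against complete media + IgG, 0 of 8 tested genes were called in QCM + IgG by edgeR, DESeq2 or voom with limma, where 0.374% of all genes were called by edgeR, and 1 had an unadjusted p under 0.05, as had 12% of all genes. In the other comparisons Ccl20 was left out and 7 genes were tested, since Cxcl2 did not pass the filter. In SCM + IgG 1 of 7 (Cxcl16) rose, beside 6.08% of all genes called, 4.96% higher and 1.12% lower. In Wnt5a + IgG 2 of 7 (Cxcl16 and Cxcl10) rose, beside 10.2% called, 8.29% higher and 1.88% lower. At an unadjusted p under 0.05 stood 4 of 7 in SCM + IgG, against 24.7% of all genes, and 4 of 7 in Wnt5a + IgG, against 33.1%.

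Between SCM + IgG and QCM + IgG 0 of 7 were called by edgeR, DESeq2 or voom, beside 0.903% of all genes by edgeR, with 1 at an unadjusted p under 0.05 (17% of all genes). That gene was Cxcl16 (log2 fold change 0.99, 95% interval 0.36 to 1.62, adjusted p = 0.085, edgeR). With anti-Ptk7 in SCM 0 of 7 were called by edgeR, beside 1.23% of all genes (0.581% higher and 0.645% lower), with 2 at an unadjusted p under 0.05 (17.1% of all genes) and 1 called by DESeq2 and by voom. In Wnt5a 0 of 7 were called by edgeR, DESeq2 or voom, beside 0.884% of all genes by edgeR, with 0 at an unadjusted p under 0.05 (15% of all genes). The difference between the antibody effects in Wnt5a and SCM was called for 0 of 7 by edgeR, DESeq2 or voom and for 0% of all genes by edgeR, with 0 of 7 at an unadjusted p under 0.05, where 602 of all genes (3.88%) were.

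**Figure D4:**
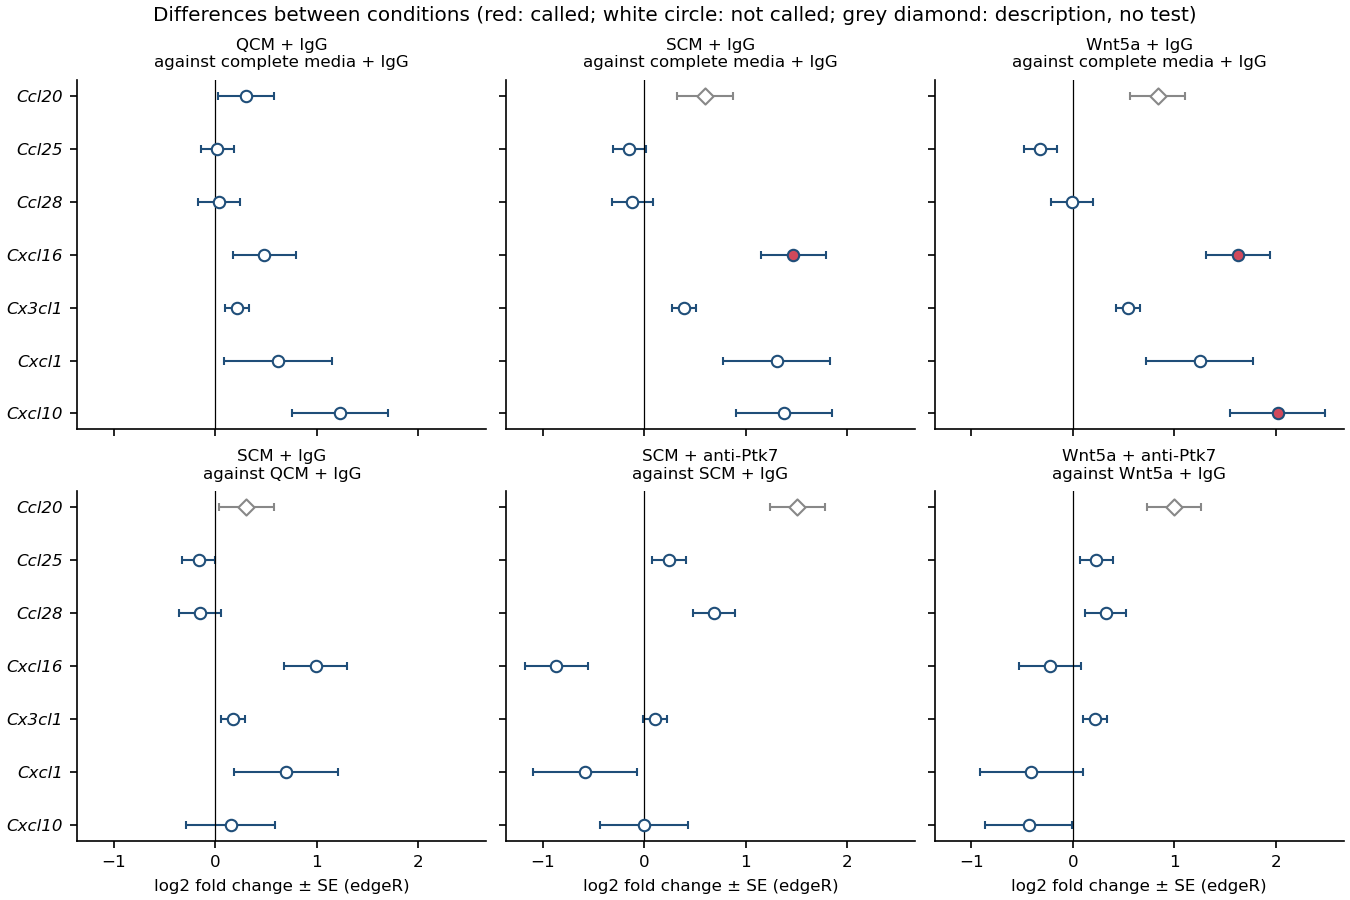
log2 fold change ± SE (edgeR) of the 7 detected chemokine genes in 6 comparisons, red where called, white circles where tested and not called, and grey diamonds for Ccl20 where no test is given. Cxcl16 is called in SCM + IgG and Wnt5a + IgG (1.47 and 1.63), and Cxcl10 in Wnt5a + IgG (2.02).

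Of 29 other chemokine ligand genes, 2 were detected. Ccl9 averaged 15.6 ± 1.79 CPM (SD, n = 6) in complete media + IgG and 29.1 ± 9.54 in SCM + IgG, and Ccl6 averaged 1.86 ± 0.731 and 5.42 ± 1.76 CPM. Both rose in SCM + IgG, by log2 fold changes of 0.90 ± 0.27 (adjusted p = 0.023, edgeR) and 1.53 ± 0.35 (adjusted p = 0.0031, edgeR), in a comparison where 4.96% of all genes were called higher. In Wnt5a + IgG neither was called, with log2 fold changes of −0.02 ± 0.27 for Ccl9 (adjusted p = 0.97, edgeR) and 0.88 ± 0.35 for Ccl6 (adjusted p = 0.070, edgeR). In QCM + IgG they were 0.53 ± 0.27 for Ccl9 (adjusted p = 0.43, edgeR) and 1.04 ± 0.35 for Ccl6 (adjusted p = 0.18, edgeR), neither called. Between SCM + IgG and QCM + IgG 0 of the 3 ligands tested were called by edgeR, DESeq2 or voom. There 0 had an unadjusted p under 0.05 by edgeR, beside 0.903% of all genes called and 17% at that p.

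The receptors of these ligands were near 0. Of 23 chemokine receptor genes, 2 were detected, the atypical receptor Ackr4 (3.48 CPM over 36 libraries), which takes up Ccl25 among other ligands, and Ccrl2 (0.982). Ccr6 had 6 counts in 1 library, Ccr9 106 counts in 11 libraries, Ccr10 25 counts in 8, Cxcr2 7 counts in 3, Cxcr3 12 counts in 2, Cxcr6 44 counts in 7 and Cx3cr1 19 counts in 4. Ccr3, a further receptor of Ccl28, had 0 counts. Of the detected receptors, 0 were called in any comparison by edgeR, DESeq2 or voom. The share of all genes called by edgeR ran from 0% (difference between the antibody effects) to 10.2% (Wnt5a + IgG against complete media + IgG). Of the 2 receptors, 1 had an unadjusted p under 0.05 by edgeR, in SCM + IgG against QCM + IgG, as had 17% of all genes.

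NF-κB subunits and feedback genes were listed because that pathway is a well known inducer of Ccl20, Cxcl1 and Cxcl2. Of 21 tested, 3 rose with anti-Ptk7 in SCM, namely Nfkbia (log2 fold change 0.68 ± 0.13, adjusted p = 0.0027, edgeR), Nfkbiz (0.76 ± 0.18, adjusted p = 0.019), which encodes a nuclear IκB protein, and Zc3h12a (0.78 ± 0.19, adjusted p = 0.018). Over all genes 0.581% were called higher there. Ccl20 was picked for its rise in these same libraries, and the list was chosen with earlier results of these data known. The 3 calls are thus not independent of those choices. The list had a median of 0.13 on the log2 scale, beside 0.0017 over all genes. In Wnt5a with anti-Ptk7 0 were called by edgeR, DESeq2 or voom, and 4 had an unadjusted p under 0.05 by edgeR, beside 0.884% and 15% of all genes. There Nfkbia had a log2 fold change of 0.43 ± 0.13 (adjusted p = 0.062, edgeR).

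Against complete media + IgG, 3 of the 21 rose in SCM + IgG (4.96% of all genes) and 5 in Wnt5a + IgG (8.29% of all genes), with list medians of 0.14 and 0.39 on the log2 scale beside 0.01 over all genes in both. Tnfaip3, which encodes the NF-κB inhibitor A20, averaged 10.98 ± 3.23 CPM (SD, n = 6) in complete media + IgG, 23.7 ± 8.48 in SCM + IgG and 35.7 ± 12.6 in Wnt5a + IgG, with log2 fold changes of 1.11 ± 0.22 (adjusted p = 0.00074, edgeR) and 1.70 ± 0.22 (adjusted p = 8.34e-07, edgeR). Bcl3, an atypical IκB protein, rose in SCM + IgG by 0.97 ± 0.19 (adjusted p = 0.00053, edgeR). Zc3h12a rose in both, by 0.59 ± 0.19 and 1.09 ± 0.19, and Nfkb2 rose in Wnt5a + IgG by 0.86 ± 0.15 (adjusted p = 8.16e-05, edgeR). Nfkb1 fell in SCM + IgG against QCM + IgG, from 35.4 ± 2.64 to 23.2 ± 4.17 CPM (log2 fold change −0.61 ± 0.13, adjusted p = 0.017, edgeR).

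Among 17 tested inflammatory inputs and outputs of NF-κB in epithelium, 4 rose in SCM + IgG (4.96% of all genes) and 6 in Wnt5a + IgG (8.29% of all genes) against complete media + IgG. The list medians were 0.75 and 0.76 on the log2 scale, beside 0.01 over all genes in both. Ptgs2, which encodes the inducible prostaglandin synthase COX-2, averaged 3.36 ± 1.57 CPM (SD, n = 6) in complete media + IgG, 15.1 ± 3.34 in SCM + IgG and 39.4 ± 19.99 in Wnt5a + IgG, with log2 fold changes of 2.17 ± 0.47 (adjusted p = 0.0018, edgeR) and 3.55 ± 0.48 (adjusted p = 1.86e-06, edgeR). The cytokine gene Il18 rose by 1.34 ± 0.25 in SCM + IgG and 1.32 ± 0.25 in Wnt5a + IgG, and Il1a by 2.53 ± 0.74 in SCM + IgG. Tnf was at 2.98 ± 1.31 CPM in complete media + IgG and 8.04 ± 2.496 in Wnt5a + IgG, a log2 fold change of 1.44 ± 0.31 (adjusted p = 0.00079, edgeR). With anti-Ptk7 0 of the 17 were called in either medium by edgeR, DESeq2 or voom, where 1.23% of all genes were called in SCM and 0.884% in Wnt5a by edgeR. At an unadjusted p under 0.05 stood 3 in SCM and 0 in Wnt5a, beside 17.1% and 15% of all genes.

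Of 12 tested interferon response genes, listed because Cxcl10 is one, 1 rose in QCM + IgG (0.355% of all genes), 2 in SCM + IgG (4.96%) and 3 in Wnt5a + IgG (8.29%) against complete media + IgG. The list medians were 0.03, 0.68 and 0.63 on the log2 scale, beside 0.02, 0.01 and 0.01 over all genes. Irf1, a transcription factor of that response, averaged 10.6 ± 4.47 CPM (SD, n = 6) in complete media + IgG, 22.3 ± 3.73 in QCM + IgG, 25.4 ± 3.35 in SCM + IgG and 20.5 ± 4.77 in Wnt5a + IgG, and was called in all 3. It was also the gene of this list that rose with anti-Ptk7 in Wnt5a, to 33.1 ± 3.65 CPM (log2 fold change 0.69 ± 0.18, adjusted p = 0.03, edgeR). Irf9 rose in SCM + IgG and Wnt5a + IgG by 0.76 ± 0.25 and 0.94 ± 0.25, and Ifnlr1, a receptor subunit for interferon lambda, in Wnt5a + IgG by 0.93 ± 0.28.

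Ccl20 is a gene of the epithelium over lymphoid follicles, where M cells form, so 10 genes of that epithelium were set beside it. This list too was chosen with earlier results of these data known, and Ccl20 for its rise with anti-Ptk7. Of 8 tested, 3 rose in SCM + IgG (4.96% of all genes) and 4 in Wnt5a + IgG (8.29%) against complete media + IgG, and 2 rose with anti-Ptk7 in SCM (0.581%). The list medians were 0.45, 0.59 and 0.06 on the log2 scale, beside 0.01, 0.01 and 0.0017 over all genes. Tnfaip2, a gene of M cells, was at 1.22 ± 0.707 CPM (SD, n = 6) in SCM + IgG and 4.15 ± 1.54 in SCM + anti-Ptk7 (log2 fold change 1.73 ± 0.42, adjusted p = 0.019, edgeR). Against complete media + IgG, Tnfaip2 in SCM + IgG had a log2 fold change of −0.87 ± 0.42 (adjusted p = 0.20, edgeR) and the M cell factor Spib one of −0.65 ± 0.88 (adjusted p = 0.70, edgeR), neither called. Tnfrsf11a, which encodes RANK, the receptor that drives M cell formation, rose with anti-Ptk7 in SCM by 0.60 ± 0.16 (adjusted p = 0.035, edgeR). Tnfrsf11b, which encodes osteoprotegerin, the decoy that binds the RANK ligand, was at 7.82 ± 2.53 CPM in complete media + IgG, 37.7 ± 4.19 in SCM + IgG and 90.4 ± 31.4 in Wnt5a + IgG. Its log2 fold changes were 2.27 ± 0.25 (adjusted p = 9.24e-08, edgeR) and 3.53 ± 0.26 (adjusted p = 8.21e-12, edgeR). Anxa5 rose by 1.42 ± 0.27 in SCM + IgG and 1.81 ± 0.27 in Wnt5a + IgG, and Marcksl1 in Wnt5a + IgG by 0.78 ± 0.17. Of 67 genes tested across the 7 lists beside the members, 4 were called between SCM + IgG and QCM + IgG, beside 0.903% of all genes (0.761% higher and 0.142% lower). Of these, Ptgs2 (1.70 ± 0.45), Tnfrsf11b (1.66 ± 0.24) and Anxa5 (1.00 ± 0.26) were higher and Nfkb1 lower. Irf1 was the 1 of 67 called in QCM + IgG (0.374% of all genes) and the 1 of 67 called with anti-Ptk7 in Wnt5a (0.884% of all genes).

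Among the 7 detected chemokine genes, with the condition means removed, log2 CPM moved together most for Ccl25 with Ccl28 (r = 0.528) and apart most for Ccl25 with Cxcl16 (−0.691) and Cxcl1 with Cx3cl1 (−0.610). The r of Ccl20 with each of the others lay between −0.289 (Cx3cl1) and 0.404 (Cxcl1) on this measure. These are descriptions over 36 libraries that share conditions and preparation, and those of Cxcl1 and Cxcl10 rest on few counts.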

How the data were processed

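The authors deposited 1 table of raw read counts per gene for each of the 36 libraries, made by HTSeqGenie with GSNAP 2013-11-01 on mouse genome build mm10 from single-end reads of a kit that does not mark strand. The methods say that reads in coding sequences were counted, although genes without coding sequence also hold counts. The annotation and any use of strand are not given in the sources used here. Every count was used as deposited (no value was rounded or imputed), and totals of 9581589 to 21029769 per library bound the precision of the scarce genes. Symbols were mapped to Ensembl identifiers.

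Counts were filtered by expression, scaled by TMM and tested with edgeR 4.0.16 (R 4.3.3, quasi-likelihood, all 36 libraries, 1 coefficient per condition), with Benjamini-Hochberg adjustment over 15497 genes. Calls needed an adjusted p below 0.05 together with a change of more than 1.5-fold. CPM are TMM-scaled. Alternatives were DESeq2 1.42.0, voom with limma 3.58.1, other scalings, no filter, glmTreat, the replicate block, only the groups compared and each library left out.

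The members and gene lists were chosen with earlier results of these data known. The text names the 9 members, the receptors of the members, up to 3 called genes per list and comparison with the smallest adjusted p, and the 5 genes most and least like Ccl20 among those with a mean log2 CPM over 1. Promoter sequences are from RefSeq (GRCm38.p6).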

Additional observations from a re-analysis of the deposited data

Results flagged for a closer look

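In 4 of the 42 sets of 6 libraries checked, the highest or lowest library stood further from the rest than Dixon's 95% limit for the gap divided by the range, and chance gives about 1 in 20. Ccl20 was at 23.1 CPM in Wnt5a + IgG replicate 5 (gap over range 0.745). Ccl25 was at 102.0 CPM in Wnt5a + anti-Ptk7 replicate 1 (0.708), a library with 2798 CPM of enterocyte markers in sum. Cxcl1 was at 4.98 CPM in QCM + IgG replicate 5 (0.950) and at 4.31 CPM in SCM + anti-Ptk7 replicate 4 (0.664).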

How the results depend on the processing

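The call of Cxcl16 in Wnt5a + IgG and of Cxcl10 in Wnt5a + IgG held under every alternative run. The edgeR test against a fold change of 1.5 (glmTreat) called 0 chemokine genes in SCM + IgG, where Cxcl16 had an adjusted p of 0.056. It called 0 listed genes in QCM + IgG, 5 in SCM + IgG, 9 in Wnt5a + IgG, 1 in SCM + IgG against QCM + IgG and 0 with anti-Ptk7 in either medium, while its share of all genes called was 0.0129%, 1.36%, 3.17%, 0.0258%, 0.0774% (SCM) and 0.0129% (Wnt5a). DESeq2 called 2 chemokine genes in SCM + IgG (Cxcl10 added), 1 with anti-Ptk7 in SCM (Ccl28, as did voom) and 9 listed genes in SCM + IgG against QCM + IgG, and its shares of all genes called in these comparisons were 6.84%, 1.9% and 1.7% (voom 1.46% with anti-Ptk7 in SCM). Without the filter 0 listed genes, and 0.339% of all genes, were called with anti-Ptk7 in Wnt5a. With only the groups compared, 1 chemokine gene (Cxcl16, 1.00, adjusted p = 0.047) was called in SCM + IgG against QCM + IgG and 2 listed genes with anti-Ptk7 in SCM, beside 1.85% and 0.605% of all genes, and Cxcl1 had an adjusted p of 0.033 in Wnt5a + IgG (1.24). With all libraries numbered 1 left out, chosen after seeing the data, Cxcl16 was called in SCM + IgG against QCM + IgG too (0.98, adjusted p = 0.027, beside 1.79% of all genes), and the fold change of Ccl20 with anti-Ptk7 was 1.70 in SCM and 1.05 in Wnt5a on the log2 scale. The cause was not tested.

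The labels do not say that a replicate number is an animal. Deviations of same-numbered libraries correlated at 0.092 on average (−0.044 to 0.45, 34 of 90 pairs over 0.1), against −0.018 for different numbers. With the replicate block, 2 chemokine genes were called in SCM + IgG, 1 in SCM + IgG against QCM + IgG (Cxcl16, 0.97) and 2 with anti-Ptk7 in SCM (Ccl28, 0.73, and Cxcl16, −0.86, adjusted p = 1.34e-05), and 2 listed genes in QCM + IgG, 9 in SCM + IgG against QCM + IgG and 2 with anti-Ptk7 in Wnt5a. The share of all genes called rose as well under the block, to 1.15% in QCM + IgG, 7.31% in SCM + IgG, 3.2% in SCM + IgG against QCM + IgG, 2.57% with anti-Ptk7 in SCM and 1.65% in Wnt5a.

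Leaving out 1 library at a time gave 1 to 2 chemokine genes in SCM + IgG, 0 to 1 in SCM + IgG against QCM + IgG and 0 to 1 with anti-Ptk7 in SCM. Listed genes ranged from 1 to 6 in SCM + IgG against QCM + IgG, 1 to 6 with anti-Ptk7 in SCM and 0 to 2 with anti-Ptk7 in Wnt5a, where the shares of all genes ran from 0.223% to 1.59%, 0.669% to 1.48% and 0.517% to 1%. In SCM + IgG that share ran from 4.2% to 6.6%. Cxcl10 in SCM + IgG passed without replicate 2, 3 or 5 of QCM + IgG, 1 or 2 of complete media + IgG, or 6 of SCM + anti-Ptk7 (1.37 to 1.58). Cxcl1 passed in SCM + IgG without its replicate 3 (1.53) and in Wnt5a + IgG without QCM + IgG replicate 5 (1.24). Ccl28 with anti-Ptk7 in SCM passed without SCM + IgG replicate 2 or 3, SCM + anti-Ptk7 replicate 1 or 5, or replicate 1 of either Wnt5a condition (0.68 to 0.80). Cxcl16 against QCM + IgG passed without Wnt5a + anti-Ptk7 replicate 1 (0.99).

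Some values, none of them called, changed sign. Cxcl1 in QCM + IgG was 0.61, and −0.29 without QCM + IgG replicate 5 (−0.29 to 0.86 with a library left out). Ccl25 in QCM + IgG was −0.00712 by library size alone and −0.048 to 0.073 with a library left out. Cxcl10 with anti-Ptk7 in SCM was 0.017 by library size alone, 0.0021 with only the groups compared and −0.17 to 0.16 with a library left out. The difference of antibody effects on Ccl25 was 0.0057 with the replicate block and −0.15 to 0.11 with a library left out, and on Cxcl1 −0.0050 to 0.74. Ccl28 in Wnt5a + IgG was 0.035 with libraries numbered 1 left out and −0.13 to 0.089 with 1 library left out, and Cxcl10 against QCM + IgG was −0.00408 and −0.049 to 0.53. Other ranges were −0.068 to 0.091 for Ccl28 in QCM + IgG, and for Ccl28 in SCM + IgG −0.24 to 0.035 against complete media + IgG and −0.26 to 0.020 against QCM + IgG. With deviations from the group means, 1 of the 5 genes most like Ccl20 stayed.

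Over all genes voom called 550 higher and 297 lower in SCM + IgG (edgeR 768 and 174) and 1015 and 562 in Wnt5a + IgG (edgeR 1285 and 291). Depth limits Cxcl2, Cxcl5, Cxcl10 and Cxcl1.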
